A study of Mus musculus with 20 samples.

Results

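Ddx43 is a mouse gene for an RNA helicase of the DEAD-box family. It is 1 of the 24552 genes in the table of 20 corneal libraries and was chosen because its level fell from one age to the next in these same libraries. Its own fall is therefore given as a description, with no test. Each library came from the scraped corneal epithelium of both eyes of 1 animal. All animals were female, wild-type and naive C57BL/6J mice, and the labels give their ages as 2 to 3 months (young), 12 to 13 months (12-month), 18 to 19 months (18-month) and 24 to 25 months (24-month), with 5 libraries in each group. Per the study's methods, the mice were bought, aged in house or received from an aging colony, and which source supplied which animal was not given in the sources used here, so the source of the mice and their age cannot be told apart. The libraries were primed at the poly(A) tail, so that most reads lie near the 3′ end of a transcript.

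DEAD-box helicases use ATP to open short stretches of base-paired RNA and take part in splicing, ribosome assembly, translation and RNA decay. The DDX43 protein has, beside its helicase core, a KH domain, a fold that binds single-stranded nucleic acid. In healthy adult tissue the gene is known mainly from the testis, and its human counterpart, also called HAGE, is classed as a cancer/testis antigen because tumors can express it. The corneal epithelium is a stratified layer that is constantly renewed from stem cells at the limbus, the border between cornea and conjunctiva.

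On GRCm38.p6, RefSeq places Ddx43 at chr9:78395777-78423589 on the plus strand. The GENCODE annotation gives it 1 transcript of 17 exons and 2207 bases. An antisense gene, 4930542C12Rik, overlaps the start of Ddx43 on the minus strand and is not in the table. The setting used for strand when reads were counted was not given in the sources used here. Nearest to Ddx43 on the upstream side lies Ooep, a gene of the egg cytoplasm that is read away from Ddx43 on the opposite strand. The 250 bases before the annotated starts of both genes (chr9:78395527-78395776, plus strand, and chr9:78378589-78378838, minus strand, from RefSeq on GRCm38.p6) are shown because many germline genes have starts rich in CpG, the dinucleotide at which mouse DNA is methylated. Capitals mark each CpG.
Ddx43: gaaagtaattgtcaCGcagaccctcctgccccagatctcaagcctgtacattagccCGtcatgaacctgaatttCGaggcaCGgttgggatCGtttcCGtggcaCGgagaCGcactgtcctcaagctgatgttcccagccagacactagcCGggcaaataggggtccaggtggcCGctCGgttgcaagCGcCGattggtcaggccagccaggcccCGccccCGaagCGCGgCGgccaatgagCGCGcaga
Ooep: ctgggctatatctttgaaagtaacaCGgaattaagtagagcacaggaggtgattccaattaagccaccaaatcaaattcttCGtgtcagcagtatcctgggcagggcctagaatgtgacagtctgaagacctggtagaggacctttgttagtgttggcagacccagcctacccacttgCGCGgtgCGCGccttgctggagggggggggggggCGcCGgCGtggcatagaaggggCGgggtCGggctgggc
The Ddx43 window held 20 CpG dinucleotides with a GC content of 61.6%, and 18.1% of 32536 RefSeq promoter windows of this length held at least as many, where the median was 6. The Ooep window held 11 CpG dinucleotides, a number reached by 35.8% of windows. Searched on both strands, neither window held CACGTG, present in 6.04% of windows, or GCGGGA with its complement TCCCGC, present in 17.0%. These letter matches are descriptions of sequence, and DNA methylation and factor binding were not measured.

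The reads on genes numbered 6699383 in the shallowest library and 10762360 in the deepest. The label of the tissue was checked against 10 genes typical of corneal epithelium, such as Krt12, which were read in every age group. Their summed normalized count ranged from 414837 to 514759 over the 20 libraries. At 12, 18 and 24 months against young 0 of 10 members were called, where 0.532%, 0.673% and 0.78% of all genes tested were called. That count therefore does not show that these genes stayed the same. Of the 20 libraries, 18-month replicate 2 was least like the others of its age (median Pearson r of 0.909 across genes), followed by 12-month replicate 4 (0.910), while the other 18 lay between 0.918 and 0.953. Both 18-month replicate 2 and 12-month replicate 4 also held the lowest Ddx43 level of their age. What part this has in the fall was not tested, so several values are also given without 18-month replicate 2. Others that it may move, such as the share of variance between ages, are given with all 20 libraries only.

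Ddx43 was a low but countable transcript that fell at each step of age. In the 5 young libraries its normalized read count, the read count divided by a size factor for the library, was 91.0, 88.4, 88.6, 72.1 and 91.1, from 68 to 118 reads. Replicate 4 was the lowest young library, and the other 4 were nearly equal. At 12 months the values were 61.6, 48.7, 64.3, 32.1 and 48.4, from 32 to 67 reads. All 5 were below the lowest young library. At 18 months they were 42.7, 16.4, 46.8, 43.9 and 53.2, from 14 to 59 reads, with replicate 2 far below the other 4. At 24 months the values were 28.3, 29.3, 18.0, 29.6 and 32.9, from 19 to 36 reads, and replicate 3 was the lowest. In bulk tissue, fewer cells that express a gene and less RNA in each such cell cannot be told apart.

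**Figure D1:**
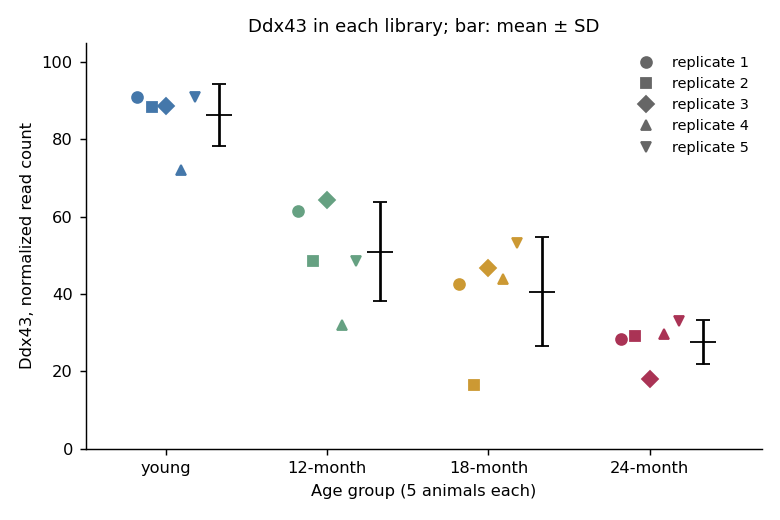
Normalized read count of Ddx43 (vertical axis) in each of the 20 libraries, grouped by age (horizontal axis), with a marker for each replicate number and the mean ± SD beside the points (n = 5). The lowest young library (72.1) lies above the highest aged library (64.3), while the 3 aged groups overlap.

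The group means were 86.2 ± 8.02 in young, 51.0 ± 12.8 at 12 months, 40.6 ± 14.1 at 18 months and 27.6 ± 5.67 at 24 months (SD, n = 5 each). Relative to young, 59.2% of the level was left at 12 months, 47.1% at 18 months and 32.0% at 24 months. Without 18-month replicate 2, the 18-month mean was 46.7 ± 4.69 (n = 4), or 54.1% of young. On the scale of log2(normalized count + 1), the changes from young were -0.78, -1.16 and -1.63, each with a standard error of 0.33 from the fit across all genes. Scaled instead to the total of reads on genes in each library (RPM), the means were 10.2, 6.03, 4.83 and 3.41 RPM, which fall in the same order.

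The young group stood apart from every aged group, whereas the aged groups ran into each other. The young libraries did not overlap with any aged library, the lowest young value being 1.12 times the highest 12-month value, 1.35 times the highest 18-month value and 2.19 times the highest 24-month value. Over all 11288 genes tested, 1.06%, 1.01% and 1.55% had all 12-month, 18-month or 24-month libraries below all young ones. From 12 to 18 months the log2 change was -0.38 ± 0.33 (SE), and 19 of 25 pairs of libraries had the younger one higher. Without 18-month replicate 2 this step shrank to -0.09 ± 0.30 with 14 of 20 pairs, so most of the difference between these neighboring ages came from that library. From 18 to 24 months the change was -0.47 ± 0.33, with 20 of 25 pairs in order, and the only 18-month library that was not above all 5 of the 24-month ones was again replicate 2, which at 16.4 was below them all. Without it the step was -0.76 ± 0.30, and all 5 of the 24-month libraries lay below all 4 of the 18-month ones, as was so for 1.02% of genes. From 12 to 24 months the change was -0.85 ± 0.33, and 24 of 25 pairs were in order, the exception being 12-month replicate 4 (32.1) against 24-month replicate 5 (32.9).

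Counted over all ages, the younger library held more Ddx43 in 138 of the 150 pairs of libraries of different age (92%), against a median of 75 pairs over all genes tested. Of the other 11287 genes, 2 had more pairs in that order. They were Apela and Chit1, each with 141, and were named after their values were seen. Means that fall at all 3 steps were shared by 552 genes, or 4.89% of those tested. Differences between the 4 ages made up 71.5% of the variance of Ddx43 over the 20 libraries on the log2 scale.

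Counting error was about as large as the spread among animals in young and 24-month corneas, but smaller at the ages between. At 18 months this rested on replicate 2. The chi-square per degree of freedom of the reads of Ddx43 within an age, which is near 1 when counting error alone acts, was 0.714 in young and 1.23 at 24 months, and 3.19 and 4.32 at 12 and 18 months. The SD was 9.30% of the mean in young, against a counting error of 10.4%. At 18 months the SD was 34.8% of the mean, against 15.4% from counting. Without 18-month replicate 2 the SD was 10.1% of the mean (n = 4), which is below that counting error. With all libraries kept, intervals of counting error alone would therefore be too narrow for the 12-month and 18-month groups, and the SD among animals is given instead.

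Of the 53 further helicases tested, 0 were called at any age. No call is given for Ddx43 itself, which was chosen for its fall, so no contrast in calls is drawn. The list held 56 other DEAD-box and DEAH-box helicases, of which 53 passed the filter of a mean normalized count of at least 10. By limma, called as an adjusted p of at most 0.05 and a change of at least 1.2-fold, 0 of 53 changed at 12, 18 or 24 months against young, where the whole table had 0.532%, 0.673% and 0.78% of genes called. Voom also called 0 of 53 at each age. At an unadjusted p under 0.05, limma gave 3, 1 and 3 members, or 5.66%, 1.89% and 5.66%, against 9.56%, 7.18% and 9.97% of all genes. Between 12 and 24 months limma and voom again called 0 of 53, where limma called 0.195% of all genes, but 16 members had an unadjusted p under 0.05 by limma, 7 higher and 9 lower at 24 months. That is 30.2% of the list, against 14.7% of all genes, and voom gave 15. The median log2 change of the 53 against young was 0.03, -0.02 and -0.01 at the 3 ages, against -0.01, 0.00 and 0.01 over all genes tested. At 18 and 24 months 0 of the 53 had a log2 change as low as that of Ddx43. At 12 months 2 did, and neither passed the test by limma. They were Ddx11, a DNA helicase of sister chromatid cohesion (-1.05 ± 0.63, adjusted p = 0.641), and Ddx20, a partner of the SMN complex (-0.83 ± 0.56, adjusted p = 0.701). Ddx43 was chosen for its fall, and the share of all genes that fell as far is not given here. These counts therefore do not set the family apart from other genes.

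The family was then read by role, with the member of smallest adjusted p at 24 months named for each. Among 4 helicases of translation initiation, Eif4a2, which unwinds the leader of messenger RNA, had a log2 change of 0.39 ± 0.25 (limma adjusted p = 0.641). Of 11 splicing and exon junction helicases, Ddx46, a part of the U2 particle, stood at -0.28 ± 0.14 (limma adjusted p = 0.503). Among 15 helicases of ribosome assembly, Ddx21, which acts in the nucleolus on ribosomal RNA, stood at -0.41 ± 0.14 (limma adjusted p = 0.235). Its normalized counts were 1326 to 1949 in young libraries with a median of 1550, and 1141 to 1356 at 24 months with a median of 1160. The young and 24-month libraries of Ddx21 thus met only at their edges, and against the 12-month group the change of -0.56 ± 0.14 was also short of the threshold (limma adjusted p = 0.0920). Of 4 tested helicases of RNA export and decay, Ddx6, which acts in messenger RNA decay and storage, stood at 0.09 ± 0.12 (limma adjusted p = 0.856). Among 5 helicases that sense foreign nucleic acid, Ddx60, an interferon-induced cofactor of such sensors, stood at -0.40 ± 0.16 (limma adjusted p = 0.385).

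Further lists concerned genes tied to the germ line and to its silencing. Most of the germline list was at or near 0 reads. Of 61 germ cell genes, 26 had 0 reads in every library, 58 were under the filter and 3 passed it. Ddx4, the germ cell DEAD-box helicase also known as Vasa, had 0 reads in all 20 libraries. Limma called 0 of the 3 at every age, with 0, 1 and 1 at an unadjusted p under 0.05, and voom called 0. Over all genes tested, 0.532%, 0.673% and 0.78% were called and 9.56%, 7.18% and 9.97% had such an unadjusted p. Stag3, a cohesin subunit of meiosis, was the unadjusted one at both ages. Its normalized counts were 47.1, 30.7, 57.5, 38.1 and 70.2 in young and 3.90, 8.94, 18.0, 13.1 and 15.1 at 24 months. The 24-month libraries of Stag3 all lay below the young ones, as was so for 1.55% of all genes tested. Its log2 change of -2.04 ± 0.71 missed the threshold (limma adjusted p = 0.247). Tdrd7, a Tudor protein of germ granules, had a log2 change of -0.23 ± 0.39 at 24 months (limma adjusted p = 0.906).

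The list of silencing genes held DNA methyltransferases, TET demethylases, members of the polycomb complex PRC1.6 and histone H3 lysine 9 methyltransferases with their partners. Of 20 members, 17 were tested and limma called 0 at each age, with 0, 2 and 3 at an unadjusted p under 0.05 by both limma and voom, and voom also called 0. The unadjusted shares by limma were 0%, 11.8% and 17.6%, against 9.56%, 7.18% and 9.97% of all genes tested. The median log2 change was -0.05, -0.04 and 0.04. Dnmt1, the maintenance methyltransferase, changed by 0.26 ± 0.21 at 24 months (limma adjusted p = 0.730). The member with the lowest change was Tet1, a demethylase read at no more than 29 reads in any library, with -2.28 ± 0.98 (limma adjusted p = 0.415). Over the aged libraries alone its mean normalized count lay below the filter of 10. It was thus tested only because of its higher young counts, so its fall is a description only.

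**Figure D2:**
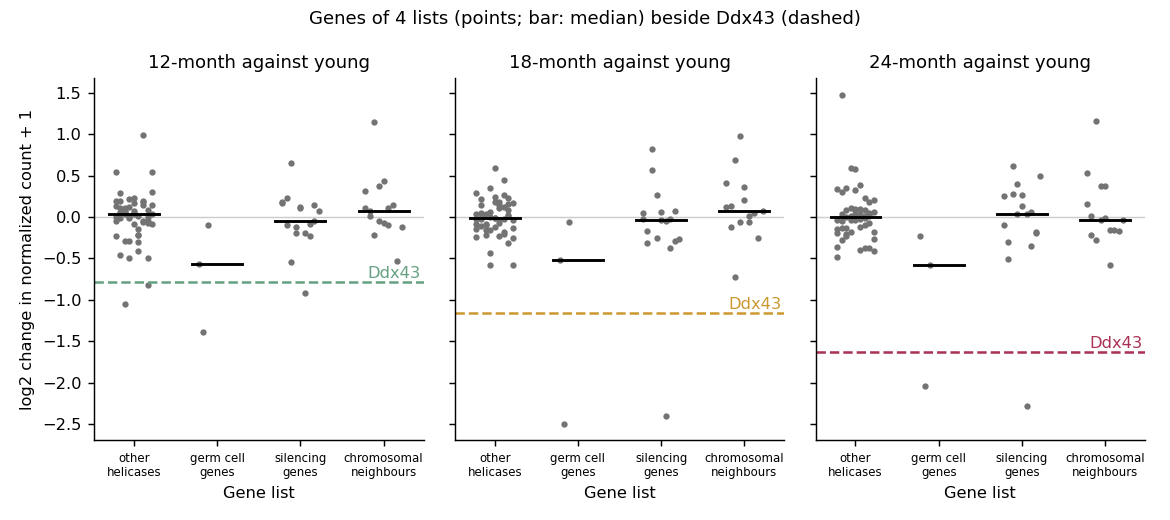
Log2 change from young of each tested gene (vertical axis) for 4 gene lists (horizontal axis) at 12, 18 and 24 months, with a bar at the median of each list and a dashed line at Ddx43 (-0.78, -1.16 and -1.63). The other helicases center on 0, and the lone points below the line at 24 months are Stag3 (-2.04) and Tet1 (-2.28), which did not pass the adjusted test. Tet1 passed the filter only through its young counts.

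No tested neighbor of Ddx43 on the chromosome was called at any age. Of the 10 annotated neighbors listed on each side, 15 of 20 were tested, limma and voom called 0 at each age, and 2, 2 and 3, or 13.3%, 13.3% and 20% of the 15, had an unadjusted p under 0.05 by limma, against the 9.56%, 7.18% and 9.97% of all genes. The 3 at 24 months, Gsta1, Gsta2 and Slc17a5, had positive changes of 1.16 ± 0.39, 0.37 ± 0.15 and 0.52 ± 0.22 (limma adjusted p = 0.225, 0.359 and 0.411). The median log2 change of the 15 was 0.08, 0.07 and -0.04, and 0 of 15 had a change as low as that of Ddx43 at any age. As Ddx43 was chosen for its fall, that count does not set the neighbors apart from other genes. The nearest gene upstream, Ooep, 17.2 kb away, had normalized counts from 15.3 to 147 in young libraries with a median of 54.0, and from 18.5 to 47.2 at 24 months with a median of 32.2. The groups of Ooep overlapped, and the log2 changes of -0.10, -0.06 and -0.58, each ± 0.50, did not pass the test (limma adjusted p = 0.976, 0.994 and 0.745). Nearest downstream, 6.93 kb away on the other strand, lies Cgas (Mb21d1 in the table), a sensor of cytosolic DNA. Its log2 changes were 0.15, 0.05 and -0.16, each ± 0.24 (limma adjusted p = 0.915, 0.993 and 0.886). Beyond it, Mto1, which modifies mitochondrial transfer RNA, stood at -0.17 ± 0.32 at 24 months, and Eef1a1, a translation elongation factor, at -0.04 ± 0.17 (limma adjusted p = 0.917 and 0.970). On the upstream side, Gm10639 had a change of 0.38 ± 0.69 at 24 months (limma adjusted p = 0.910). Gsta1 and Gsta2 encode glutathione S-transferases, which conjugate glutathione to reactive compounds. These genes are close copies, and reads may be split between them.

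**Figure D3:**
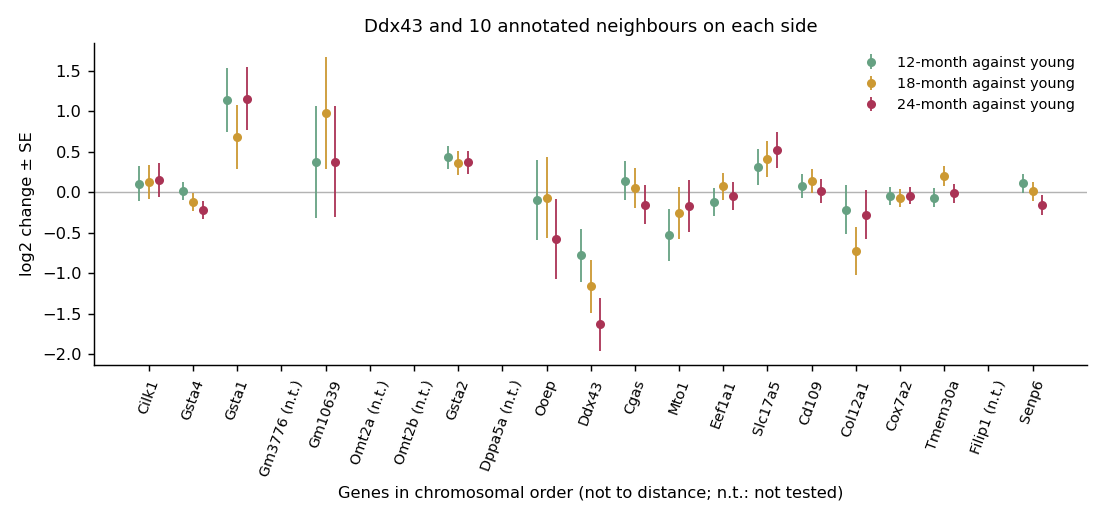
Log2 change from young ± SE (vertical axis) at 12, 18 and 24 months for Ddx43 and the 10 annotated genes on each side, in chromosomal order (horizontal axis, not to distance). Ddx43 lies at -0.78, -1.16 and -1.63, below every neighbor that was tested.

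The genes most like Ddx43 depended on whether the ages or the animals within an age were compared. For each of the other 11287 genes, likeness was measured as Pearson r over the 20 libraries, as r over deviations from the age means, and as the root mean square difference between its 3 log2 changes from young and those of Ddx43. These r values are descriptions over 20 libraries that share their size factors with Ddx43 in each point, and over all 20 libraries a shared fall with age alone gives a high r. The top 10 by the first measure and the top 10 within ages shared 0 genes, the first and the between-age measure shared 1 (Krt4), and the within-age and between-age measures shared 0.

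Over 20 libraries, Apela, which encodes a secreted peptide ligand of the apelin receptor, was most like Ddx43 (r = 0.900). Its normalized counts were 155, 99.7, 78.5, 45.6 and 40.8 in young, 38.6, 19.7, 21.4, 9.02 and 30.6 at 12 months, 3.66, 0, 3.18, 7.17 and 8.70 at 18 months, and 0, 4.88, 0.946, 5.22 and 0.941 at 24 months. Apela thus went down further than Ddx43, to at most 8.70 at 18 and 24 months. The next were Col1a2 (0.830) and Col1a1 (0.790), the chains of type I collagen, Stfa1 (0.817), a cysteine protease inhibitor, and Fstl1 (0.810), a secreted glycoprotein. Pam (0.806) makes peptide amides, Ifit1bl1 (0.794) belongs to an interferon-induced family, H19 (0.794) is an imprinted noncoding RNA, Mmp2 (0.791) is a gelatinase and Krt4 (0.787) a keratin of mucosal epithelium. Their log2 changes from young to 24 months ran from -0.72 for Stfa1 to -4.81 for Apela, around the -1.63 of Ddx43. H19 and Mmp2 had libraries with 0 reads in every aged group and at most 7 and 15 reads at 24 months. H19 passed the filter only through its young counts. Without 18-month replicate 2, 4 of the 10 kept their place (Apela, Col1a1, Col1a2 and Pam). The 6 that then entered, named after their values were seen, were Dcn (0.846), Sparc (0.841), Col6a3 (0.841), Emb (0.835), Serpinf1 (0.832) and Dpt (0.830). Of these Sparc, Col6a3 and Dpt, like Dcn, encode proteins of the extracellular matrix.

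The genes whose mean changes from young were nearest to -0.78, -1.16 and -1.63 were not among the 10 of highest r over 20 libraries, Krt4 apart. Msrb3, which repairs oxidized methionine, was nearest, with a root mean square difference of 0.14 on the log2 scale, but its young and 24-month libraries overlapped. Clec2g, a C-type lectin (0.17), changed by -0.94, -1.25 and -1.41. Its normalized counts were 385 to 499 in young and 131 to 201 at 24 months, with no overlap, as was so for 1.55% of all genes tested. Krt4 (0.18), the only gene in both top lists, changed by -1.07, -1.09 and -1.54, from 4518 ± 914 in young to 1545 ± 237 at 24 months (SD, n = 5). Igfbp2, a binding protein of insulin-like growth factors, and Aqp1, a water channel, both differed by 0.18. Fsd1l (0.20), Olfm1 (0.21), Bbof1 (0.21), Med12l (0.22) and Dcn (0.22) completed the 10, with Dcn, the collagen-binding proteoglycan decorin, at -0.99, -1.10 and -1.94. The young and 24-month libraries of Fsd1l and Med12l also overlapped, and Fsd1l passed the filter only through its young counts. Krt4 apart, the standard error of each gene's change at 24 months was larger than its difference from Ddx43, up to 0.82 for Fsd1l. The ranking is therefore a description of means only. Without 18-month replicate 2, 3 of these 10 kept their place.

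**Figure D4:**
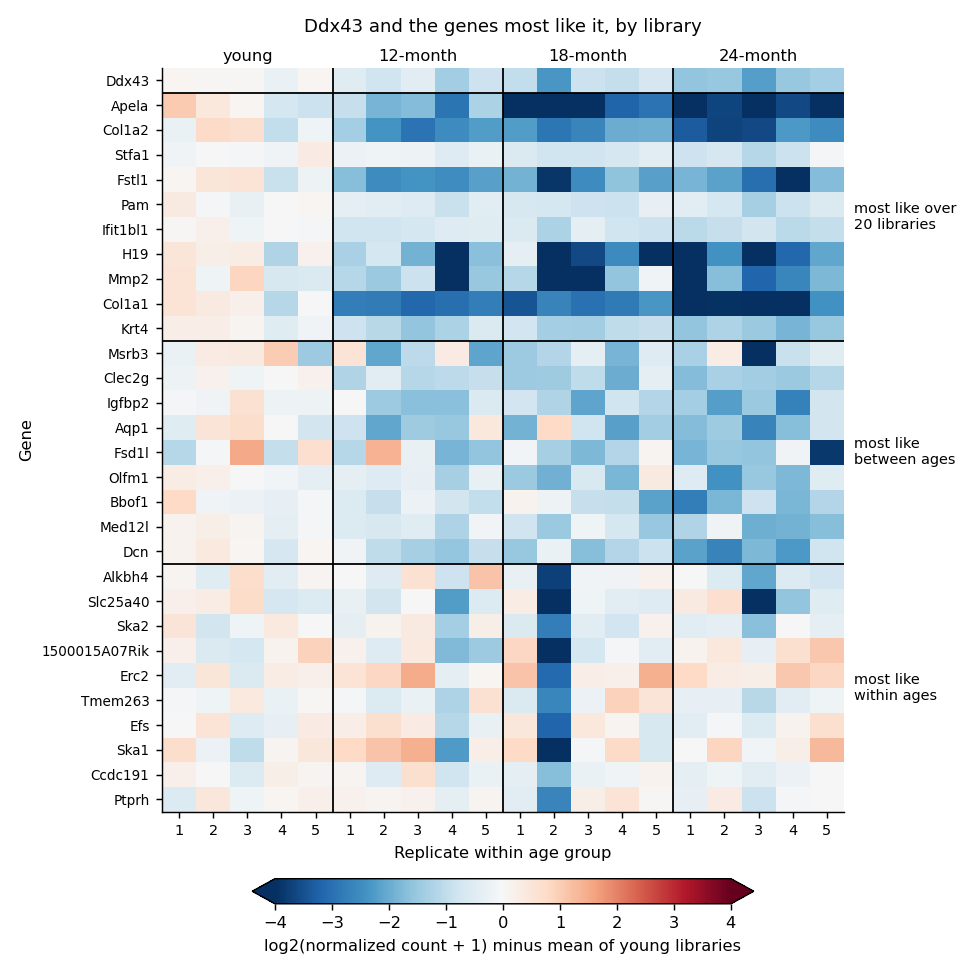
Log2(normalized count + 1) minus the mean of the young libraries (color) for Ddx43 and the genes most like it by 3 measures (rows) in the 20 libraries (columns, by age and replicate). In the lowest block the column of 18-month replicate 2, where Ddx43 was 16.4, is the darkest.

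Within ages the likeness rested largely on 1 library. Alkbh4, a demethylase of the AlkB family, had the highest r (0.869), followed by Slc25a40 (0.847), a mitochondrial carrier, and Ska2 (0.845), a part of the kinetochore complex that also includes Ska1 (0.833). The others were 1500015A07Rik (0.842), Erc2 (0.835), Tmem263 (0.834), Efs (0.834), Ccdc191 (0.830) and Ptprh (0.829). Alkbh4 had normalized counts of 35.4, 2.35, 39.7, 39.4 and 49.3 at 18 months, so that replicate 2 was far below the other 4, as it was for Ddx43. Its values at 24 months were 43.9, 29.3, 9.46, 29.6 and 25.4, with replicate 3 lowest, again as for Ddx43. At the other ages Alkbh4 ranged from 30.7 to 71.2 in young and from 24.1 to 98.1 at 12 months, and these groups overlapped. Without 18-month replicate 2, r dropped to 0.66 for Alkbh4 and 0 of the 10 genes kept their place. Nup160 (0.893), a nuclear pore protein, and Spaca1 (0.872), a protein of the sperm acrosome, then led, where with all libraries they stood at 0.482 and 0.614. In the opposite direction were 2610002M06Rik (-0.818), Nptn (-0.792), Tufm (-0.771), Papss2 (-0.765) and Mup4 (-0.754). Without 18-month replicate 2 and 12-month replicate 4 these weakened to -0.64, -0.55, -0.64, -0.51 and -0.46. Mup4 was at 0 in all 24-month libraries.

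**Figure D5:**
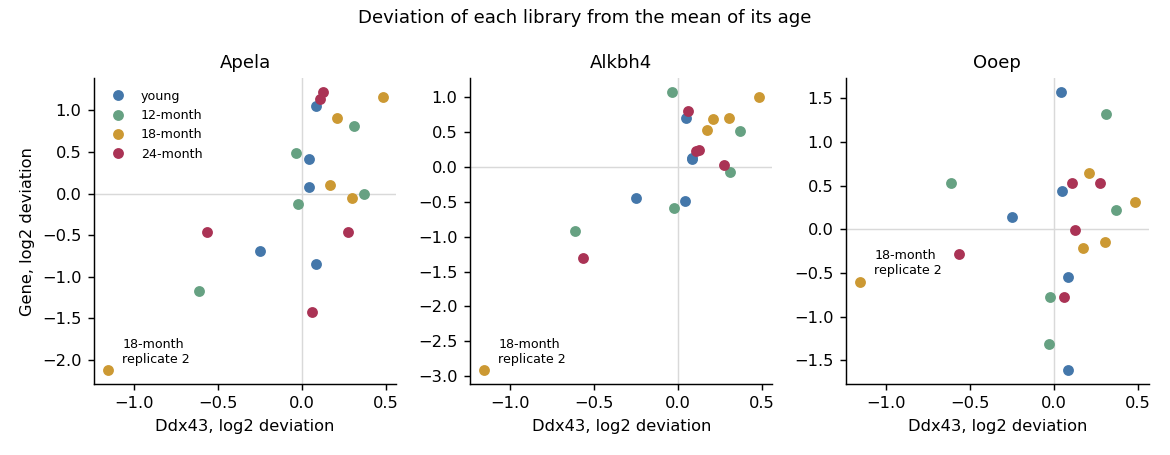
Deviation of each library from the mean of its age on the log2 scale for Ddx43 (horizontal axis) against Apela, Alkbh4 and Ooep (vertical axes), colored by age. In the panels of Apela (r = 0.680) and Alkbh4 (r = 0.869) the lowest point is 18-month replicate 2, and for the neighbor Ooep r was 0.223.

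Markers of cells other than corneal epithelium were read in these libraries, and some fell with age beside Ddx43. Of 12 keratocyte genes (cells of the stroma under the epithelium), 11 were tested and limma called 4, 5 and 7 lower and 0 higher at 12, 18 and 24 months, against 0.301%, 0.337% and 0.47% of all genes called lower. Their summed normalized count was 2251 to 5710 in young (median 5178), 924 to 1910 at 12 months (median 1344), 918 to 1701 at 18 months (median 1188) and 617 to 1331 at 24 months (median 692). As for Ddx43, the lowest young library was above every aged one, and Ptgds was at 0 in all young and all 24-month libraries. Among the genes most like Ddx43, 2 of the top 10 over 20 libraries and 1 of the top 10 between ages were on this list, and 0 of the top 10 within ages. Without 18-month replicate 2 these counts were 4 (Col1a1, Col1a2, Dcn and Sparc), 0 and 0. Of 5 genes typical of glands, limma called 4, 5 and 5 lower, with a sum of 497 to 11595 in young and 0 to 109 in the aged libraries. These 5 genes were picked from earlier results of these same data, so their calls are a description only. Of 8 conjunctival genes, 7 were tested and 2, 2 and 1 were called lower. Krt4, which was among the genes most like Ddx43 both over 20 libraries and between ages, is on this list and was called lower at each age. For dividing cells 8 of 8 listed genes were tested, for melanocytes 2 of 5, and for nerves with their Schwann cells 3 of 8. For immune cells 7 of 10 were tested, for vessels 1 of 6 and for the corneal endothelium 4 of 5. Limma called 0 members of these lists at each age, against 0.532%, 0.673% and 0.78% of all genes. Lists this short cannot show that a cell type stayed the same. Their median log2 changes at 24 months were, in the same order, 0.28, 0.07, -0.13, -0.92, -0.99 and -0.01.

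Whether Ddx43 followed these markers among animals of the same age was tested with the age means removed, for 10 marker lists, the total of reads and the share of reads on the 10 top genes. Over the 20 libraries none of the 12 relations passed the adjustment. With the keratocyte sum, Pearson r was 0.153 (permutation p = 0.510, adjusted 0.611) and Spearman rho 0.219 (permutation p = 0.370, adjusted 0.444), and r was 0.146 without the 2 libraries farthest from the median of the sum. In the young and 12-month groups the library with the least Ddx43, replicate 4 in both, also had the lowest keratocyte sum (2251 and 924). At 24 months replicate 3, with the least Ddx43, had the median sum (692), and replicate 2 had the lowest (617). At 18 months replicate 2, with the least Ddx43, had the highest sum (1701). Without that library r was 0.64 (permutation p = 0.00719, adjusted 0.0701). With the corneal epithelial sum r was -0.267 (permutation p = 0.139, adjusted 0.501), and -0.50 without that library (permutation p = 0.0117, adjusted 0.0701). That library was left out after its values were seen, and the p-values without it do not cover this choice. Over 20 fits that each left out 1 library, r ran from 0.02 to 0.64 with the keratocyte sum. With the corneal epithelial sum it ran from -0.50 to -0.13, so leaving out 18-month replicate 2 gave the most extreme r for both. With the total of reads on genes r was 0.248 (permutation p = 0.454, adjusted 0.605). The part that other cell types have in the fall of Ddx43 with age was not tested.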

How the data were processed

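RNA of corneal epithelium from 20 mice, 5 at each of 4 ages, was sequenced. Per the submitters' processing notes and methods, the authors trimmed reads with cutadapt, checked them with FastQC, aligned them to GRCm38 with STAR, counted genes with HTSeq and normalized by relative log expression with DESeq2. The versions, the gene annotation and the strand setting were not given in the sources used here. The 4 deposited tables hold log2 values that the authors made from the count divided by a size factor, plus 1; 736560 shared values were compared between tables and 0 differed. The tables also hold the fold changes and p-values of the authors' own comparisons and a mean signal, which were not used. No per-sample column was left unmapped (0).

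From each value the whole number of reads was recovered (100% within 0.05 of a whole number). Ages were fitted together with limma 3.58.1 in R 4.3.3 on log2(normalized count + 1), with a variance trend, over the 11288 genes whose normalized count averaged 10 or more, which is 7.60 to 13.3 reads depending on the library. Adjustment was by Benjamini-Hochberg over all genes tested, with calls at an adjusted p of 0.05 or less and a 1.2-fold change. The 20 libraries had 8731334 reads on genes at the median, and 7624 genes were at 0 in all. Correlations were tested two-sided with 100000 permutations within ages (Python 3.11.15, numpy 2.4.6, pandas 2.3.3, scipy 1.17.1; plots with matplotlib 3.10.9). Limma and the ranking of genes were tested on simulated data before use.

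Ddx43, the gene lists, the tests and the alternatives were chosen with earlier results of these data known. Named genes were Ddx43, the 10 with the highest r over 20 libraries and within ages, the 5 with the lowest r within ages, the 10 nearest between ages, 3 tested neighbors on each side, list members called at any age, and the helicase of each role with the smallest adjusted p at 24 months. Other genes were named after their values were seen, such as Chit1, Stag3, Tdrd7, Tet1, Dnmt1, Ddx4, Ddx11, Ddx20, Nup160, Spaca1, Sparc, Col6a3, Emb, Serpinf1 and Dpt. Alternatives were quantile normalization, scaling to reads per library, voom on the recovered reads, pseudocounts of 0.1 and 10, no filter, a filter of 50, no fold threshold, only the compared groups, Spearman ranks, the replicate number as a block, and leaving out each library. Protein sequences were not used here.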

Additional observations from a re-analysis of the deposited data

Results flagged for a closer look

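Over 28 groups of 5 libraries, 3 lowest or highest libraries lay far from the other 4 by Dixon's ratio (0.71 for 5 samples), and chance flags about 1 in 20 groups. Ddx43 in the young group was flagged for its lowest library, replicate 4, at a normalized count of 72.1, where the other 4 were 88.4 to 91.1. Ddx43 at 18 months was flagged for its lowest library, replicate 2, at 16.4, where the other 4 were 42.7 to 53.2. Gm10639, an upstream neighbor, was flagged at 18 months for its highest library, replicate 5, at 33.8, where the other 4 were 8.73 to 15.2.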

How the results depend on the processing

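The fall of Ddx43 kept its direction in all 6 comparisons under every alternative run. When each library was left out, its log2 change from young ranged from -0.87 to -0.63 at 12 months, from -1.28 to -0.87 at 18 months and from -1.70 to -1.49 at 24 months; from 12 to 18 months it ranged from -0.53 to -0.09, from 18 to 24 months from -0.76 to -0.33 and from 12 to 24 months from -1.003 to -0.71. A pseudocount of 10 gave -1.37 at 24 months. Counts of called members were 0 for the helicases, silencing genes and neighbors in every setting; the germ cell count at 18 months ranged from 0 to 1, Stag3 being called without 18-month replicate 4. Of the 10 genes most like Ddx43, those that remained numbered 5 over 20 libraries and 2 within ages by Spearman rho, 3 within ages and 4 between ages with a filter of 50, and 6 between ages after quantile normalization, the filter having removed genes of low count; when each library was left out, 4 to 10, 0 to 10 and 3 to 10 remained. With each library left out, r between Ddx43 and the keratocyte sum ranged from 0.02 to 0.64, and no marker relation passed the adjustment. Same-numbered libraries did not vary together over all genes tested, with r from -0.303 to 0.159 over 30 pairs and 3 above 0.1. Of 20 libraries, 3 correlated best with their own number. Such a check can miss a factor that acts on part of the genes, and the labels do not say what the number stands for. With the replicate block the change of Ddx43 at 24 months stayed at -1.63 with an SE of 0.338, and 0 list members were called. Depth limits Ddx43 to 14 to 118 reads per library.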

Other observations

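Ddx3y, the Y-linked copy of Ddx3x, had 5 reads in young replicate 5 and 0 reads in the other 19 libraries, all labelled female. Chit1, an enzyme that cuts chitin, had normalized counts of 682 to 1147 in young libraries, 385 to 645 at 12 months, 357 to 492 at 18 months and 296 to 393 at 24 months, with no overlap between young and any aged group. At 12, 18 and 24 months, 1.06%, 1.01% and 1.55% of all genes tested had all older libraries below all young ones.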
